A study of Mus musculus with 278 samples.

Results

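The genes described here are the subunits of the proteasome, its assembly chaperones and its activators, chosen by gene symbol alone: the families Psma to Psmg followed by a number. The rule found 48 of the 23354 genes in the deposited matrix, and Psmc3ip, a recombination cofactor whose symbol only resembles the family, was left out. The members were sorted by structure into the 7 alpha ring genes, the germ cell alpha gene Psma8, 7 beta ring genes (4 structural, 3 catalytic), 4 immunoproteasome and thymoproteasome beta genes, 6 ATPases and 11 other subunits of the 19S cap, 3 cap chaperones, 4 core chaperones, 4 activators and the regulator Psmf1.

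The proteasome is the protease that degrades proteins tagged with ubiquitin. Its 20S core is a barrel of stacked rings, with outer alpha rings that gate the entrance and inner beta rings that hold the proteolytic sites, and its 19S cap binds, unfolds and feeds in the substrate. Interferon exchanges the catalytic beta subunits for immune forms that favour peptides for antigen presentation, and male germ cells carry the variant alpha subunit Psma8. The activator Psme4 (PA200) is known for its role in histone removal in later spermatogenesis.

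Expression was measured in 278 single spermatogonia, the germ cells that hold the stem cells of the testis, each sample being 1 cell. They came from untreated mice aged 6 days with an EGFP reporter of Id4, a gene expressed in spermatogonial stem cells. Testes of at least 2 pups were pooled, EGFP-positive cells were sorted by flow cytometry and caught singly on a Fluidigm C1 chip, and the brightness of each cell was imaged before SMARTer cDNA synthesis. The labels put each cell in a quartile of brightness from Q1, bright, to Q4, dim (74, 70, 74 and 60 cells). Every group shares the reporter, age and sort, and the sort removed EGFP-negative cells, so the quartiles grade positive cells only. Cells fell into 5 runs of 26, 62, 37, 75 and 78 cells by the number in the sample titles, and each run was taken as a preparation. The preparation is the replicate here (n = 5). Groups of 1 preparation and quartile held from 4 cells (Q4 of preparation 1) to 20, and Q4 of preparation 3 held 7. The labels do not tell whether preparations are different litters, so p-values do not reach beyond these preparations. Each preparation's own level is removed in the fit, and p-values weigh how quartile differences vary among these preparations. The estimate of that spread for each gene also draws on all genes tested.

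The germ cell markers Ddx4, Dazl, Mael and Uchl1 reached 1 FPKM in 100% of cells. FPKM counts sequenced fragments per kilobase of a transcript, relative to all mapped fragments of the cell. Of the markers of Sertoli, Leydig, peritubular, blood and endothelial cells, the most often detected was Star, in 19.8% of cells, and the Sertoli markers did not exceed 7.55% (Sox9). Preparation 3 stood apart, with 4437 detected genes per cell against 5875 to 7148 elsewhere. Bright cells exceeded dim cells by 561 ± 379 detected genes (Q1 minus Q4, SD over 5 preparations), with the same direction in 5 of 5 (two-sided exact permutation p = 0.0625, the lowest that 5 pairs can reach). Effective depth, estimated from the steps between low FPKM values, had a median of 592670 fragments per cell. At that depth 1 fragment of a transcript of 1000 bases is worth 1.69 FPKM.

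The DNA just upstream of a few members is shown because the comparisons of constitutive with immune catalytic genes, and of bright with dim cells, turn on them. Each line is the 250 bases before the RefSeq start site (GRCm38.p6), 5′ to 3′ on the strand of the gene. Capitals mark matches, on either strand, to the core of the ETS factor site (CCGGAA) or to the antioxidant response element (TGACNNNGC). Psmb5 encodes the constitutive chymotrypsin-like site (beta5; chr14:54617996-54618245, minus strand), and Psmb8 its immune counterpart (beta5i; chr17:34197945-34198194, plus strand). Psmb6 encodes the caspase-like site (beta1; chr11:70525107-70525356, plus strand), and Psmb9 its immune counterpart (beta1i; chr17:34187331-34187580, minus strand). Psme3 encodes the nuclear activator PA28 gamma (chr11:101315963-101316212, plus strand), and Psmf1 the proteasome regulator PI31 (chr2:151741311-151741560, minus strand).
Psmb5: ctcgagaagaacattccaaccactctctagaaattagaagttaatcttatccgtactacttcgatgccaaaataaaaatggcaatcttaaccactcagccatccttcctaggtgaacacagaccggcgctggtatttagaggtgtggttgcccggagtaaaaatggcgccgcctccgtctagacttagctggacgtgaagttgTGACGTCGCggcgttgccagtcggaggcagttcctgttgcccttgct
Psmb8: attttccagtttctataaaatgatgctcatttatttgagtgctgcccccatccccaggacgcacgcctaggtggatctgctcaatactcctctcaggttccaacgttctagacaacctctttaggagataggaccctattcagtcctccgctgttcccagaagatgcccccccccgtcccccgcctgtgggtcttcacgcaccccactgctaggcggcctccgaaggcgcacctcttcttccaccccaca
Psmb6: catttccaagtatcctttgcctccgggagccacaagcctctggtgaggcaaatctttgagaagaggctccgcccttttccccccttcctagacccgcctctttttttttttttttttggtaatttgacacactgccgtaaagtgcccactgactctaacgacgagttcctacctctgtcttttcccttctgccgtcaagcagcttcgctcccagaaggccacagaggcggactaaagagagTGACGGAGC
Psmb9: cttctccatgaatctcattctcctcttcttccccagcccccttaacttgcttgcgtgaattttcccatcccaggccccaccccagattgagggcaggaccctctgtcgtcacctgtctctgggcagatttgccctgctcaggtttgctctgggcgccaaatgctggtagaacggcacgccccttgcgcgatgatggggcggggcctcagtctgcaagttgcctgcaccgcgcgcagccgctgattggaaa
Psme3: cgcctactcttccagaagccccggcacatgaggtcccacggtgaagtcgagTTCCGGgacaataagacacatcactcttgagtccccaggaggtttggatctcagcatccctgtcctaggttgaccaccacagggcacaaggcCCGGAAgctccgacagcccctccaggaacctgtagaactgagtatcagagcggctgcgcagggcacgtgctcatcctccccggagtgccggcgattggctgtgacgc
Psmf1: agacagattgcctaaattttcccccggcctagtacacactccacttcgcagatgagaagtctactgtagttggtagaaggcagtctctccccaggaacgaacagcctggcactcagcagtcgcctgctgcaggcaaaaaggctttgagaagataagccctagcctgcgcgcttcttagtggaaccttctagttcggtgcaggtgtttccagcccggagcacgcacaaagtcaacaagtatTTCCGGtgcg
Psmb8 and Psmb9 lie close together in the major histocompatibility region of chromosome 17. For Psmb5, Psmb8, Psmb9 and Psmf1, and for Psmb10, the RefSeq start lies inside the longer GENCODE M21 span of the gene. The bases before other start sites are therefore not fully covered by these windows. Over the 40 members with an entry in the promoter table, CCGGAA or its reverse complement was in 17 windows (42.5%), against 13.6% of the windows of all 27025 genes in the table. TGACNNNGC was in 5 (12.5%, against 11.5%), and the interferon response pattern (GAAA, any 2 bases, GAAA) in 3 (7.5%, against 3.46%). The ETS core was in the windows of Psme3 and Psmf1, and the antioxidant pattern in those of Psmb5 and Psmb6. The printed windows of Psmb8 and Psmb9 held no match to these patterns, and neither did that of the immune gene Psmb10, which is not printed. Its constitutive form Psmb7 has no entry in the promoter table, so that pair could not be compared. A match is a match of letters and no measure of binding.

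The members were abundant in these cells. Together they held 2.68% ± 0.09 of a cell's summed FPKM (mean and SD of 5 preparation means), and single cells ran from 1.78% to 3.73% with a median of 2.66%. A cell had between 32 and 47 of the 48 members at 1 FPKM or more, with a median of 44. Of the members, 16 were detected in every cell and 38 in at least 90% of cells. Levels, which FPKM gives per transcript length, were uneven between genes. Psmb2 alone held 10.5% of the members' sum, the 5 most abundant members 38.3%, and the 10 most abundant 56.8%.

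**Figure D1:**
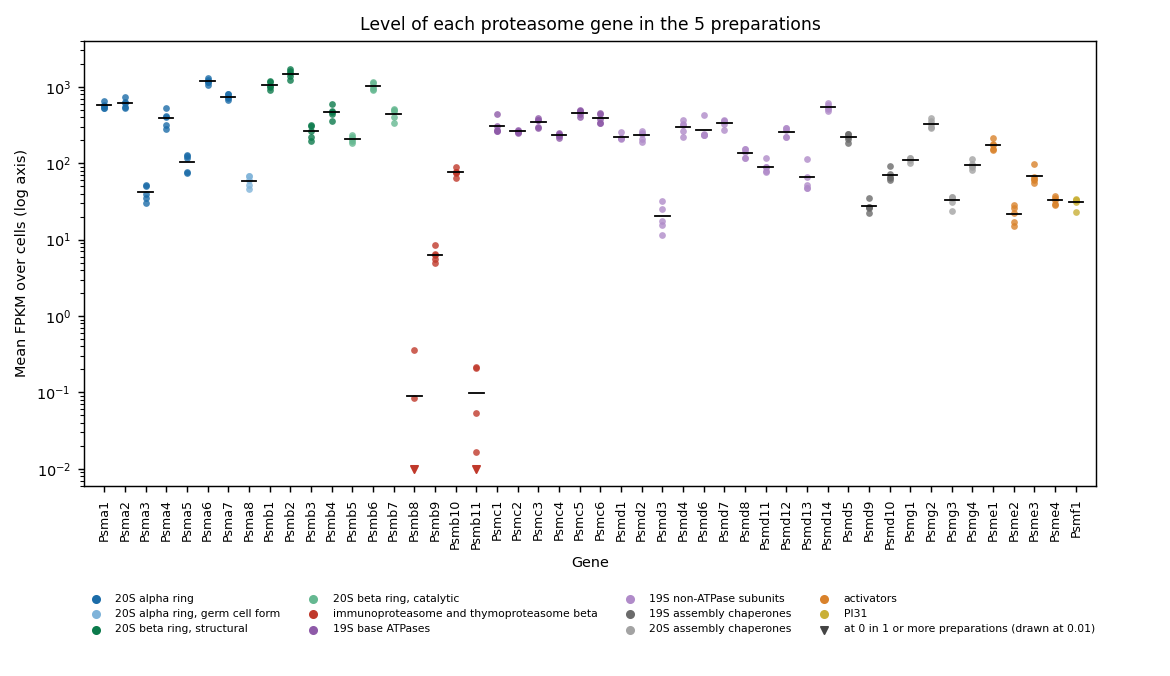
Mean FPKM over the cells of each of the 5 preparations (points) and their mean (bars) for the 48 members on a log axis, coloured by structural group. Psmb2 is the highest at 1478 FPKM, while Psmb8 and Psmb11 lie below 1 FPKM and Psmb9 near 6.36.

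In the alpha ring, which gates the core, Psma6 had the highest level, with 1207, 1067, 1150, 1310 and 1156 FPKM in preparations 1 to 5 (1178 ± 89.5, SD, n = 5). Psma3 had the lowest, with 34.9, 30.5, 39.7, 50.8 and 52 FPKM (41.6 ± 9.56). The level of Psma3 is uncertain. The pseudogene Gm13835, not analysed here, shares 100% of 665 aligned bases with Psma3, and Gm609, which has its own row in the matrix, shares 96.3% of 327. How reads common to such copies were assigned is not stated. Near-identical annotated transcripts of other genes (at least 95% over at least 200 bases) also exist for Psma4, Psma5, Psmb3, Psmb5, Psmb6, Psmc1, Psmd1, Psmd2, Psmd11, Psmd13, Psme2 and Psmg3, 13 members in all, and their levels carry the same uncertainty. For Psmd1, Psmd13 and Psmg3 the matching gene (Gm21972, Sirt3 and Gm26938) overlaps their own exons, so they also count among the overlaps given below.

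In the beta ring the structural subunit Psmb2 had the highest mean of all 48 members, with 1587, 1374, 1217, 1715 and 1499 FPKM (1478 ± 192). Psmb3 was the lowest structural beta gene at 261 ± 51.4 FPKM. The catalytic genes stood at 1018 ± 113 FPKM for Psmb6, 445 ± 71.6 for Psmb7, which carries the trypsin-like site, and 208 ± 20.1 for Psmb5. All 3 catalytic genes were detected in every cell, and their order was the same in each preparation.

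The immune forms were far lower and differed among themselves. Psmb10, the immune counterpart of Psmb7, was common: it stood at 74.6, 75.8, 77.1, 88.7 and 64.4 FPKM in the 5 preparations and was detected in 259 of 278 cells (93.2%). Psmb9 was detected in 49 cells (17.6%, exact 95% interval 13.3% to 22.6%, counting error only) and averaged 6.45, 5.54, 8.47, 5.02 and 6.33 FPKM. No preparation mean of Psmb9 came near the lowest of Psmb10. Detection varied more than the means: by preparation Psmb9 was found in 19.2%, 21%, 8.11%, 25.3% and 11.5% of cells, and Psmb10 in 73% of preparation 3 against 92.3% to 100% elsewhere. In the 49 cells with Psmb9, its median was 20.7 FPKM and its highest value 223, so the low mean rests on few positive cells.

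Psmb8 was detected in 2 of 278 cells (0.719%, exact 95% interval 0.0872% to 2.57%), at 5.29 and 9.46 FPKM. Psmb11, the beta subunit of the thymoproteasome, known from the thymic cortex, was detected in 4 cells (1.44%, 0.393% to 3.64%), none of them above 13.3 FPKM. These 2 genes fell below the filter on low values and were not tested. The exons of Psmb9 overlap Tap1 on the opposite strand, and the sources used here do not say whether strand was kept, so reads of the pair cannot be told apart. Tap1 was listed at 1 FPKM or more in 1.44% of cells. In all, 11 members have exons that overlap another gene on the opposite strand, Psmb7, Psmb8, Psmd3 and Psme1 among them, and 3 on the same strand. Their levels carry the same uncertainty.

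The ratio of the constitutive to the immune form was 165 ± 38.4 for Psmb6 over Psmb9 (SD, n = 5, from 131 to 230), and Psmb9 exceeded Psmb6 in 0 of 278 cells. For Psmb7 over Psmb10 it was 5.89 ± 1.16, from 4.53 to 7.63, with Psmb10 above Psmb7 in 8 cells. No mean ratio is given for Psmb5 over Psmb8, because Psmb8 was listed at 0 in 3 preparations. The immune forms were thus not equally low: the ranges of the Psmb6 and Psmb7 ratios do not overlap. Other genes of antigen presentation were uneven as well. Of a list of 13 antigen presentation and interferon genes, 7 passed the filter on low values. Among the sparse ones, the peptide transporter genes Tap1 and Tap2 were in 1.44% and 0.36% of cells, and the class I heavy chain H2-K1 in 8.99%. By contrast, beta-2-microglobulin (B2m) was in 79.1%, Tapbp in 75.9%, and the most often detected gene of the list in 86.7%.

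Psma8, the germ cell alternative to Psma7 in the alpha ring, was detected in 226 of 278 cells (81.3%), at 67.8, 46.5, 61.1, 51.3 and 67.6 FPKM. Psma7 stood at 802, 668, 797, 739 and 704 FPKM, with no overlap, a ratio of 12.8 ± 1.70 (SD, n = 5, from 10.4 to 14.4). In 1 cell Psma8 was the higher of the pair.

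Every 19S subunit gene was detected in most cells. The 6 ATPases that unfold the substrate were the most even group, from 232 ± 14.8 FPKM for Psmc4 to 458 ± 40.4 for Psmc5, a 1.97-fold range, against 28.3-fold in the alpha ring and 26.4-fold among the 11 other cap subunits. Of the latter, Psmd14, the deubiquitinase that removes the ubiquitin chain, was the highest at 540 ± 47.1 FPKM. Psmd3, a scaffold of the lid, was the lowest, with 31.9, 25.3, 15.7, 11.6 and 17.8 FPKM, and it was detected in 62.6% of cells. Its highest and lowest preparations differed by a factor of 2.75, the widest spread among the tested members. The small lid subunit and the core chaperone that carry other symbols, Shfm1 (Sem1) and Pomp, stood at 751 ± 86.8 and 593 ± 48 FPKM.

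Of the cap chaperones, which help assemble the ATPase ring, Psmd5 was highest at 219 ± 25.6 FPKM and Psmd9 lowest at 27.2 ± 4.71. Of the core chaperones, Psmg2 was highest at 330 ± 43.1 FPKM and Psmg3 lowest at 32.6 ± 5.55, with Psmg3 in 65.8% of cells. Among the activators, Psme1 and Psme2, the paired subunits of the interferon-inducible activator PA28, stood at 173 ± 25.9 and 21.7 ± 5.73 FPKM. Their proteins form a mixed ring. The ratio of Psme1 to Psme2 was 8.39 ± 2.27, from 5.73 to 11.9, and the level of Psme2 is uncertain because the gene Psme2b, not analysed here, shares 99.4% of 794 aligned bases with it. Psme3 stood at 60.3, 66.5, 98.8, 55.2 and 62.5 FPKM, with preparation 3 above the others, Psme4 at 32.6 ± 3.64, and Psmf1 at 30.8 ± 4.53.

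The comparison of the brightest with the dimmest cells asked whether proteasome genes differ along the Id4 reporter gradient. From Q1 to Q4, the members' share of summed FPKM was 2.67% ± 0.08, 2.64% ± 0.12, 2.71% ± 0.18 and 2.68% ± 0.09 (SD over 5 preparations). Within preparations, Q1 minus Q4 was -0.02 ± 0.09 percentage points, from -0.08 to 0.12, and Q1 was higher in 2 of 5. This difference is smaller than the spread between preparations.

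**Figure D2:**
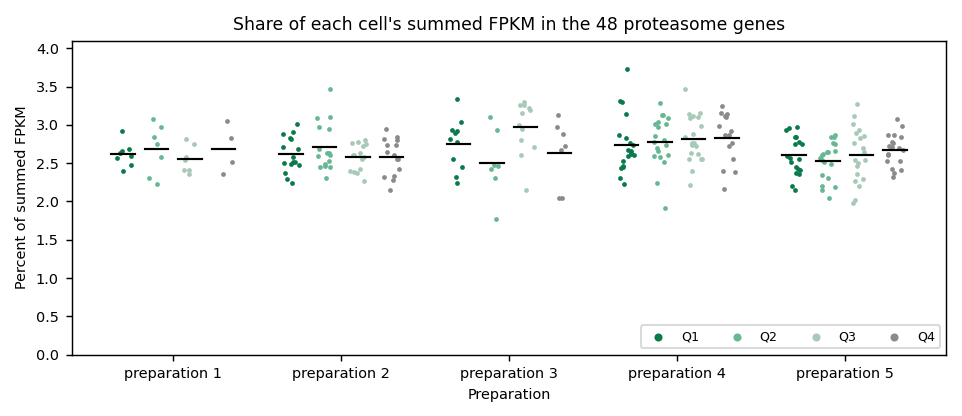
Share of each cell's summed FPKM held by the 48 members, in percent, by preparation and quartile (points are cells, bars are means). The means of the 20 groups lie between 2.50% and 2.97%, and Q1 and Q4 overlap in every preparation.

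Gene by gene, no member passed the test. Of 46 members tested, 0 were called between Q1 and Q4 by limma at an adjusted p under 0.05, where 8 of 10452 genes were called (0.0765%). At an unadjusted p under 0.05, 6 members were higher in Q1 (10.4% of all genes) and 1 was lower (1.03%). With the replicate block left out, and under each of the other settings tried, the members called were again 0. In the mean of log2 values, members above the other quartile in 5 of 5 preparations were Psmd1, Psmg3 and Psme3 for Q1 (3 members, against 8.42% of genes). For Q4 they were Psmb6 and Psme2 (2 members, against 1.67%). For the slope over all 4 quartiles, limma called 0 members (0.0765% of genes), with 5 higher toward Q1 (10.7% of genes) and 2 lower (1.31%) at an unadjusted p under 0.05. The smallest adjusted p of a member's slope was 0.185 (Psmf1, limma).

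All differences below are Q1 minus Q4 in the mean over cells of log2(FPKM + 1), where adding 1 understates changes of low genes. The median over the members was 0.06, against 0.17 over all genes tested: 15 members lay above the all-gene median and 31 below. Around 0 the members split into 26 above and 20 below, where the all-gene median puts most genes tested above. Their standard errors had a median of 0.21 (0.09 to 0.47), against 0.32 over all genes. The 95% interval lay within 1 log2 unit of 0 for 37 of 46 members (80.4%, against 59.4% of genes) and within 0.5 for 18 (39.1%, against 7.18%). Members were more often abundant, with 27 of 46 at a mean of 200 FPKM or more, against 521 of 10452 genes. The standard errors and intervals were not matched for level. By preparation, the members' median was -0.10, -0.02, 0.52, 0.04 and 0.02. Preparation 3, the one with few detected genes, stood apart, and without it the median over members was 0.0017, against 0.13 over all genes.

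**Figure D3:**
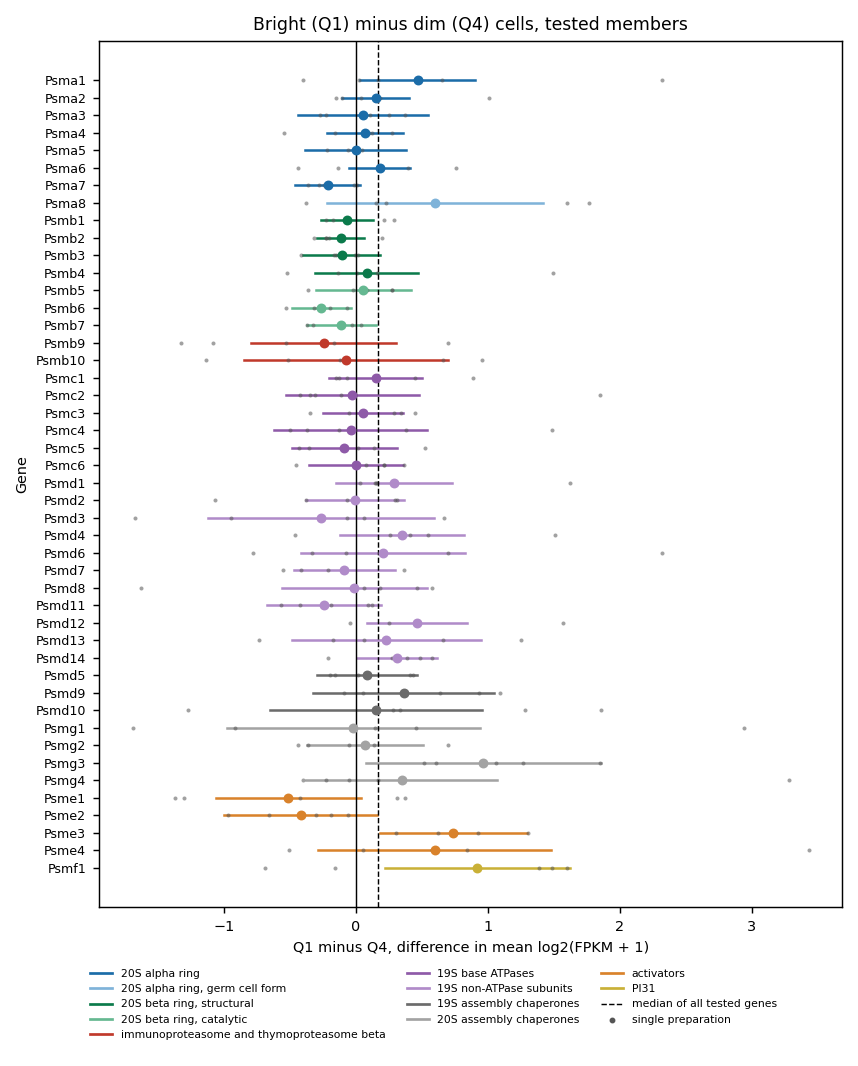
Q1 minus Q4 difference in mean log2(FPKM + 1) for the 46 tested members (large points) with its 95% interval, the values of single preparations (small points) and the median of all genes tested (dashed line at 0.17). Most intervals cover 0, and Psme3, Psmf1 and Psmg3 lie farthest to the right.

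The medians of the structural groups are given without a test. The alpha ring had a median difference of 0.07, the structural beta genes -0.09, the catalytic beta genes -0.11 and the ATPases -0.01, while the other cap subunits had 0.20, the cap chaperones 0.15, the core chaperones 0.21 and the activators 0.09. The immune beta genes tested, Psmb9 and Psmb10, had a median of -0.16, and the genes that stand alone had 0.60 (Psma8) and 0.92 (Psmf1). In the beta ring, 5 of 7 genes had a difference below 0, and with cells scaled to a common 75th percentile Psmb2, Psmb3 and Psmb7 moved above 0 (0.11, 0.12 and 0.11).

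Among the beta genes the lowest p belonged to Psmb6. Its mean was 878, 862, 1167, 1085 and 832 FPKM in Q1 and 1235, 967, 1086, 1294 and 1018 FPKM in Q4 of preparations 1 to 5. The FPKM mean was lower in Q1 in every preparation except the third, the mean of log2 values was lower in 5 of 5, and the ranges of the quartiles overlap. Its difference was -0.26 ± 0.11 (SE, limma adjusted p = 0.339), and -0.04 after scaling to a common 75th percentile. Psmb2, the most abundant member, had -0.12 ± 0.09 (adjusted p = 0.649), with a 95% interval from -0.30 to 0.06.

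The other catalytic genes, constitutive and immune, had larger adjusted p than Psmb6. Psmb5 had a difference of 0.06 ± 0.18 and Psmb7 -0.11 ± 0.13, against -0.08 ± 0.38 for Psmb10 and -0.25 ± 0.27 for Psmb9, with limma adjusted p from 0.775 to 0.967. Both immune genes depended on the setting: once detected genes entered the fit as a covariate, the value was -0.998 for Psmb10 and -0.94 for Psmb9. With 1 preparation left out, Psmb10 ran from -0.42 (without preparation 5) to 0.30 (without preparation 4), and Psmb9 from -0.65 (without preparation 5) to 0.01 (without preparation 2). For Psmb9 the mean in Q1 was 0.448, 2.65, 7.93, 3.73 and 10.5 FPKM and in Q4 20.9, 7.02, 31.8, 8.72 and 0 FPKM. Q4 was the higher in every preparation but the fifth, and few cells stand behind each mean: 11.7% of Q1 and 18.5% of Q4 cells had the transcript (mean of preparation shares).

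In the alpha ring Psma1 had the smallest p, with 0.47 ± 0.21 (limma adjusted p = 0.395). It was higher in Q1 in 4 of 5 preparations in the mean of log2 values, while its mean FPKM was lower in Q1 in preparations 1 and 4. Without preparation 3, where Psma1 stood at 751 FPKM in Q1 and 311 in Q4, the difference was 0.20. Psma7 had -0.22 ± 0.12 (adjusted p = 0.506), and its slope was among those under an unadjusted p of 0.05. Psma8 had 0.60 ± 0.40 (limma adjusted p = 0.595), higher in 4 of 5 preparations in the mean of log2 values. In mean FPKM, Q1 was the higher in preparations 4 and 5 only. The mean level of Psma8 was 56.4 ± 13.1 FPKM in bright and 52.1 ± 12.5 FPKM in dim cells (SD over 5 preparations). The share of cells with the transcript was 83.1% in Q1 and 69.8% in Q4 (mean of preparation shares). The 95% interval of Psma8 ran from -0.22 to 1.42, which covers both signs. With detected genes in the fit its difference was 0.11, and it was 0.26 without preparation 4 and 0.92 without preparation 2. Psma6 and Psma3, the highest and lowest of the ring, had 0.18 ± 0.11 and 0.05 ± 0.24.

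In the cap the smallest p belonged to the lid subunit Psmd12, at 301, 291, 339, 220 and 218 FPKM in Q1 and 275, 254, 251, 250 and 191 in Q4. Q1 was the higher in all but preparation 4, the ranges overlap, and the difference was 0.46 ± 0.18 (limma adjusted p = 0.322). In preparation 3 it was 1.57, against -0.04 to 0.45 in the others, and without that preparation it was 0.29. Psmd14 had 0.31 ± 0.15 (adjusted p = 0.425), with 572, 564, 615, 502 and 528 FPKM in Q1 against 419, 414, 576, 412 and 464 in Q4. Every preparation mean of Psmd14 in FPKM was higher in Q1, and its mean of log2 values was higher in 4 of 5. The ATPases Psmc4 and Psmc5 had -0.04 ± 0.28 and -0.09 ± 0.19, Psmd3 -0.27 ± 0.41 (-0.039 without preparation 2), and the chaperones Psmd5 and Psmd9 0.08 ± 0.18 and 0.36 ± 0.33.

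The core chaperone Psmg3 had the largest difference of any member, 0.97 ± 0.43 (limma adjusted p = 0.391), higher in 5 of 5 preparations. The share of cells with the transcript was 100%, 81.3%, 36.4%, 80% and 73.7% in Q1 of preparations 1 to 5 and 50%, 66.7%, 14.3%, 46.7% and 52.6% in Q4. Few cells stand behind some of these shares, with 4 in Q4 of preparation 1 and 7 in Q4 of preparation 3. More bright than dim cells had it in each preparation, 74.3% against 46.1% on average. The mean FPKM did not follow, with 38.2 ± 14.5 in bright and 42.8 ± 15.5 in dim cells (SD over 5 preparations), and on the log2 of the mean over cells the difference was -0.13. Detected genes per cell were also higher in Q1, and with them as a covariate the difference was 0.42. Psmg2, the highest of the core chaperones, had 0.07 ± 0.21.

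The activators pointed both ways. Psme3 had the smallest p of all members, with 52.3, 74.3, 125, 53.8 and 71.5 FPKM in Q1 and 35.6, 68.9, 74.3, 50.3 and 65.2 FPKM in Q4. It was higher in Q1 in 5 of 5 preparations, most in preparation 3, while the ranges over preparations overlap. The difference was 0.74 ± 0.27 (SE, limma adjusted p = 0.279). It was 0.29 once detected genes entered the fit as a covariate, and 0.20 on the log2 of the mean over cells. Psme4 had 0.60 ± 0.43 (adjusted p = 0.635), and the value was -0.82 once detected genes entered the fit. Preparation 3 had a difference of 3.43, against -0.51 to 0.84 in the others, and without it the difference was 0.17.

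The PA28 pair lay on the other side. Psme1 was at 195, 183, 145, 129 and 122 FPKM in Q1 and 146, 170, 282, 352 and 136 in Q4, a difference of -0.51 ± 0.27 (limma adjusted p = 0.470). The gap was wide in preparations 3 and 4 and smaller, with mixed sign, in the others, and without preparation 4 the difference was -0.20. Psme2 was at 15.7, 14.4, 19.3, 21.6 and 22.8 FPKM in Q1 and 14.1, 14.6, 31.7, 33.9 and 27.9 in Q4. Its mean of log2 values was lower in Q1 in 5 of 5 preparations, again mostly in preparations 3 and 4, with -0.42 ± 0.28 (limma adjusted p = 0.606).

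Psmf1, whose product binds the core and is known as an inhibitor in vitro and as an adaptor for proteasome transport, had 33.7, 37.3, 47.9, 41.7 and 29.5 FPKM in Q1 and 41.9, 34.5, 13.6, 19.8 and 22.7 in Q4. Q1 was clearly above Q4 in preparations 3 to 5 and close to or below it in the others. The difference was 0.92 ± 0.34 (limma adjusted p = 0.280), with Q1 higher in the mean of log2 values in 3 of 5 preparations. Once detected genes entered the fit it was 0.06.

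**Figure D4:**
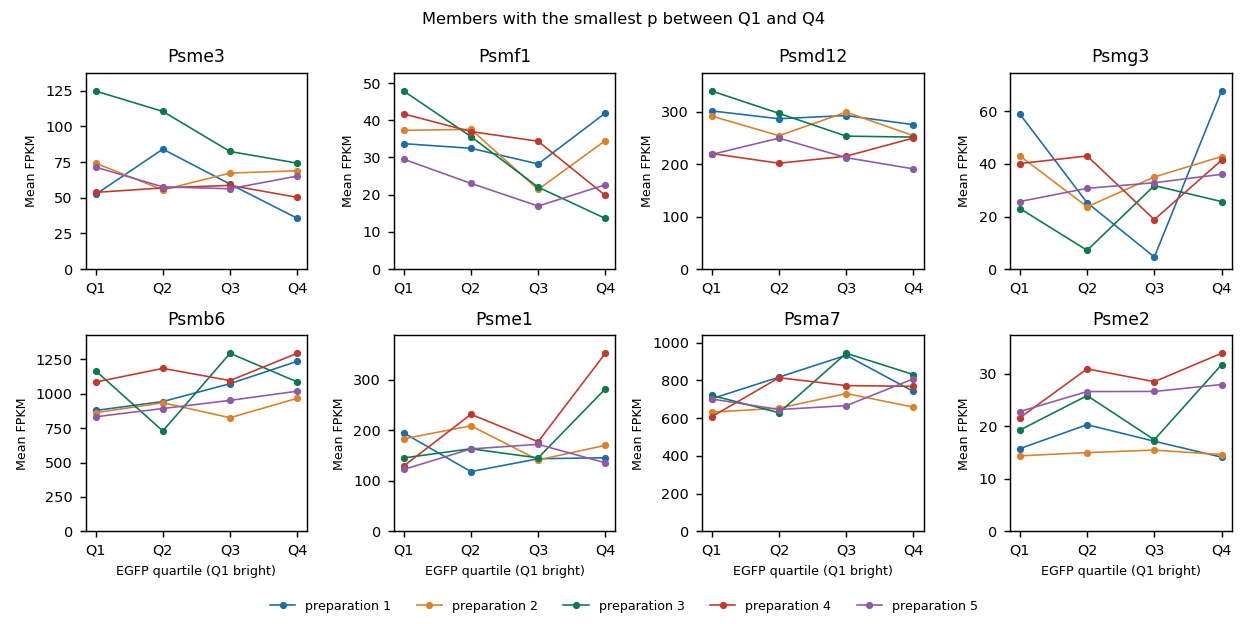
Mean FPKM over cells in each quartile, from Q1 (bright) to Q4 (dim), with 1 line per preparation, for 4 members with differences above 0 (top) and 4 below 0 (bottom). Lines of different preparations cross in every panel, and Psme1 is high in Q4 in 2 preparations (282 and 352 FPKM).

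Other genes of the pathway were taken from lists. Of 25 partners and regulators, which comprise deubiquitinases, shuttle factors, chaperones and transcription factors of proteasome genes, 0 were called by limma, 4 were higher in Q1 and 0 lower at an unadjusted p under 0.05, 22 differences were above 0 and the median was 0.20. Over all genes tested, 0.0765% were called, 10.4% were higher and 1.03% lower at that unadjusted p, and the median was 0.17. With that median, most genes tested also had differences above 0. The smallest p values were those of Ngly1, the deglycosylase that processes the proteasome gene activator Nfe2l1 (0.84 ± 0.27, limma adjusted p = 0.227), the shuttle factor Ubqln4 (0.49 ± 0.22) and the cap deubiquitinase Usp14 (0.62 ± 0.29). Of 13 antigen presentation and interferon genes 7 were tested, 0 were called (0.0765% of all genes), and 2 were higher at an unadjusted p under 0.05 (10.4% of all genes), Irf1 (0.89 ± 0.40, limma adjusted p = 0.394) and Irf9 (0.52 ± 0.25, adjusted p = 0.425).

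From cell to cell, abundant members varied least. The coefficient of variation over the 278 cells (SD divided by mean) was lowest for the structural beta gene Psmb1, at 0.29, and 17 of the 46 tested members were under 0.5, while 10 were above 1. Across members it fell with the mean level (Spearman rho -0.83), as it did across all genes tested (-0.87). This relation is across genes, which share the libraries and are not replicates. At 200 FPKM or more, the median was 0.49 for 27 members and 0.53 for 521 genes.

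**Figure D5:**
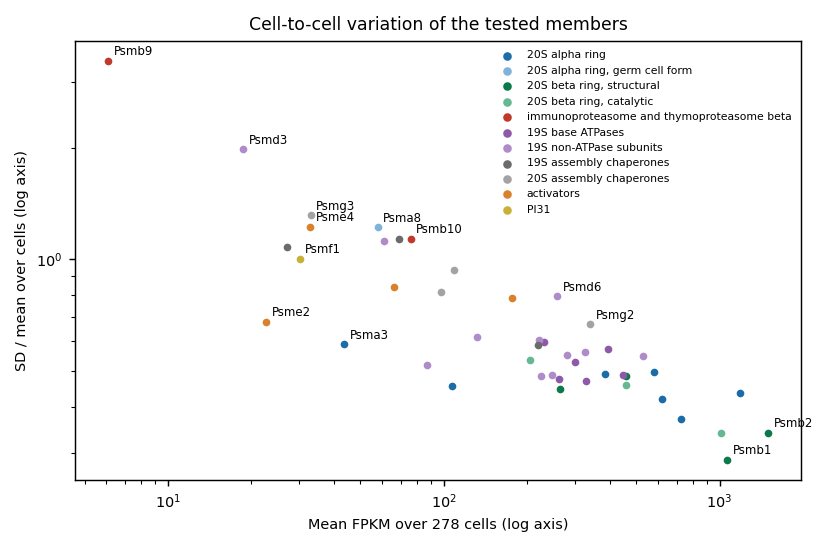
Coefficient of variation over 278 cells against mean FPKM, both on log axes, for the 46 tested members, coloured by structural group. Values fall from Psmb9 at the upper left to Psmb1 and Psmb2 at the lower right.

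Correlations between members over single cells were low. After the mean of each preparation and quartile was removed, the 1035 pairs of tested members had a median Pearson r of 0.03 over 278 cells, from -0.26 to 0.33. Pairs within the 20S rings had 0.06 (91 pairs), pairs within the 19S cap 0.03 (136 pairs) and pairs of all genes 0.02. The highest value was that of the beta genes Psmb2 and Psmb6. These values share the libraries and their FPKM scaling, and in sparse single-cell data low values are no sign that levels are unrelated.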

How the data were processed

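The authors deposited 1 table of FPKM values, 1 column per cell. The unit was read from the quantifier named and from the values, since the table has no statement of it. FastQC, TopHat, Cufflinks and Picard, with mm10 (GRCm38), stand in the record as tools and build, per the submitters' processing notes. Their versions and settings, and the annotation, are not given in the sources. The protocols once call the dim quartile by another number; the design text was followed.

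Genes at 1 FPKM or more in 10% of cells were kept (10452 of 23354). Over the cells of every preparation and quartile, log2(FPKM + 1) was averaged, which gave 20 means. The model was limma 3.58.1, run in R 4.3.3 (trend, weights by cell number, quartile, preparation as a block, 12 residual degrees of freedom; 14 for the slope, with quartile as a number), two-sided, with Benjamini-Hochberg adjustment over all genes and a threshold of 0.05. The procedure was tested on simulated data. The same run number pairs the means: deviations from quartile means correlated with a median r of 0.19 within preparations (30 pairs, lowest 0.08) and -0.07 between them. The quartiles of 1 preparation were taken to share a cell suspension. No 2 cells were duplicates.

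Coordinates and overlaps come from GENCODE M21 (GRCm38), to which all 48 symbols were matched. Near-identical transcripts were found with blastn 2.17.0. Effective depth was estimated from the steps between low values of 1849 genes with 1 annotated transcript. In 224 of 278 cells estimates from separate gene sets were within 1.25-fold, and over those the 5th to 95th percentile was 307344 to 1062571 fragments. Python 3.11.15, pandas 2.3.3 and scipy 1.17.1 were used.

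The members and the lists were chosen with earlier results of these data known, so lists are described by counts and medians and not tested. Named with values were members called, the 5 with the smallest p in each direction, the catalytic pairs, Psma7 and Psma8, the activators, Psmf1, the highest and lowest of each group, and members in 10% of cells or fewer; Psmb1 and Psmd1 were named after their values were seen. The alternatives tried were the replicate block, pseudocount, filter, weights, scaling, a covariate for detected genes, Q1 and Q4 alone, the log2 of the mean, a lower detection limit, and each preparation left out; a slope taken as a linear contrast was added after seeing the data.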

Additional observations from a re-analysis of the deposited data

Results flagged for a closer look

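Among 55 sets of 5 preparation values examined, 3 held a value far from the other 4; chance alone gives about 1 set in 20. Psmb2 had a Q1 minus Q4 difference of 0.20 in preparation 4, against -0.32 to -0.20 in the other 4. Psmb8 averaged 0.364 FPKM in preparation 1, against 0 to 0.0852 in the others. That mean rests on 1 cell at 9.46 FPKM. Psme3 averaged 98.8 FPKM in preparation 3, the preparation with the fewest detected genes, against 55.2 to 66.5 in the others.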

How the results depend on the processing

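The count of members called was 0 in both comparisons under every alternative run. The median difference over members ran from -0.04 (log2 of the mean over cells) to 0.27 (common 75th percentile), against 0.06 as reported. The median over all genes moved with the setting too, to -0.02 with detected genes as a covariate (members -0.02), to 0.32 with a pseudocount of 0.1 (members 0.11) and to 0.26 at the common 75th percentile.

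The count over all genes, 8 in each comparison, was 0 with no replicate block, with no filter, with no weights, with detected genes as a covariate and on the log2 of the mean over cells, in both comparisons, and 0 for Q1 minus Q4 with those 2 quartiles alone. At the common 75th percentile it was 44 for Q1 minus Q4 and 73 for the slope. The slope also gave 20 with a pseudocount of 0.1, 34 with a filter at 25% of cells and 14 as a linear contrast. With 1 preparation left out the counts ran from 0 to 11 for Q1 minus Q4 and from 0 to 20 for the slope: leaving out preparation 1, 4 or 5 gave 0 in both, preparation 3 gave 2 and 15, and preparation 2 gave 11 and 20. The cause was not tested. Without the pairing by preparation (no replicate block), adjusted p rose for the named members, and no member's call changed.

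Differences of single members changed sign under some settings, those of Psmg3, Psme4 and Psmd9 among them, which were not small as reported (0.97, 0.60 and 0.36). With detected genes as a covariate they were -0.15 for Psma3, 0.077 for Psmb3, -0.0041 for Psmb5, 0.040 for Psmb7, 0.16 for Psmc5, -0.82 for Psme4 and -0.24 for Psmg2. At the common 75th percentile they were 0.011 for Psma7, 0.070 for Psmb10, 0.11 for Psmb2, 0.12 for Psmb3, 0.11 for Psmb7, 0.17 for Psmc4 and 0.14 for Psmc5. On the log2 of the mean over cells they were -0.089 for Psma3, 0.020 for Psmb9, -0.027 for Psmd5, -0.093 for Psmd9, -0.063 for Psmg2 and -0.13 for Psmg3. With no weights they were 0.17 for Psmc4 and -0.0032 for Psmg2, and with a pseudocount of 0.1 it was 0.15 for Psmb10. With 1 preparation left out, the members that changed sign ran from -0.012 to 0.18 for Psma3, -0.42 to 0.30 for Psmb10, -0.035 to 0.19 for Psmb5, -0.65 to 0.012 for Psmb9, -0.27 to 0.13 for Psmc4, -0.15 to 0.026 for Psmc5, -0.039 to 0.17 for Psmd5 and -0.21 to 0.23 for Psmg2. Those that moved by over 1.5 times without a change of sign ran from 0.20 to 0.63 for Psma1, 0.092 to 0.29 for Psma6, 0.26 to 0.92 for Psma8, -0.23 to -0.068 for Psmb2, -0.15 to -0.064 for Psmb3, -0.16 to -0.073 for Psmb7, 0.29 to 0.63 for Psmd12, -0.40 to -0.039 for Psmd3, -0.77 to -0.20 for Psme1 and 0.17 to 0.95 for Psme4. Depth limits the rare members: a transcript of 1 fragment can be missed, so 0 FPKM is not absence.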
